A study of Homo sapiens with 21 samples.

Results

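Isoforms of 118 named genes, among the 11851 with a listed transcript, were called higher in both *UBE2B-/-* cardiomyocyte lines from at most 0.1 estimated counts in wild-type cardiomyocytes, and 10 of these genes are described here. They are CTNND1, SRP68, MYADM, ITPRID2, PPP6R3, TNIK, UBE3A, MID1IP1, SDC2 and SLMAP, and 44 of their transcripts appear among the 21537 listed in the 6 deposited result tables. The genes were chosen by name on that very difference between *UBE2B-/-* and wild-type cardiomyocytes, so its values are given as a description. What can be tested is their course over the preceding stages. The difference between the *UBE2B-/-* lines is a description as well, since the choice required a call in both lines, which favours agreement. RNA-seq with poly-A selection was performed on PGP1, an established human induced pluripotent stem cell (iPSC) line, during differentiation to beating cardiomyocytes. The 21 libraries fall into 7 groups of 3: wild-type cells at 5 stages, iPSC, M (mesoderm), CMes (mesoderm of the heart), CP (progenitors of cardiac cells) and CM (cardiomyocytes), and CMs of the lines *UBE2B-/-*1 and *UBE2B-/-*2. Each *UBE2B-/-* line came from its own CRISPR-Cas9 experiment in PGP1 cells and is 1 edited line. Beating *UBE2B-/-* CMs, selected in lactate medium, were compared with wild-type CMs of the same time of differentiation. By the authors' immunostaining, only part of such beating cells of each *UBE2B-/-* line expressed the cardiomyocyte proteins NKX2.5 and TNNT2, so these libraries are not of pure cardiomyocytes. Replicates came from plates started at different times.

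UBE2B is a ubiquitin-conjugating enzyme that works with the ligases RNF20 and RNF40 to place ubiquitin on histone H2B, a mark (H2Bub1) found along transcribed genes, and UBE2A is its close homolog. One gene can give many transcripts by alternative promoters, by skipping or keeping exons, and by alternative ends. Short in-frame exons are used differently in muscle, neural, epithelial and stem cells, under the control of RNA-binding proteins such as RBM20, RBM24, QKI and PTBP1, and they add or remove a few residues of a protein without changing the rest. Kallisto, with which the reads were quantified, shares each read among all annotated transcripts that it is compatible with. The level of 1 isoform is therefore an estimate, given below as a normalized estimated count, the mean of a group on the scale of natural log (estimated count + 0.5). The tables hold group values only, so no value of a single library is shown, but a recovered group mean of 0 requires that all 3 libraries were at 0.

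For 5 of the 10 genes the transcript that was on in *UBE2B-/-* CMs, called the leading transcript here, differs from the annotated main transcript or from other listed transcripts by the skipping of a whole-codon exon inside the coding sequence. These exons are shown because they are among the places where the leading transcript differs from the named transcript of the gene. Others exist inside the coding sequence. PPP6R3-225 also has a coding junction between its exons 2 and 3 that occurs in 1 annotated transcript only. SLMAP-204 also lacks other coding exons of the main transcript SLMAP-230. The skipping junction marks a way of splicing and not 1 isoform, since in GENCODE 44 it occurs in 30 transcripts for CTNND1, in 4 for each of both TNIK exons, in 4 for PPP6R3, in 2 for SLMAP and in 1 for SRP68. All are from GENCODE 44 on GRCh38, 5′ to 3′ on the strand of the gene. In the lines named "with", capitals mark the skipped exon between 15 bases of each neighbouring exon. In the lines named "without", capitals mark the first 15 bases after the junction. CTNND1-222 (ENST00000529986.5) differs from CTNND1-217 (ENST00000528232.5) by 1 exon only, of 18 bases at chr11:57806461-57806478 on the plus strand, which it lacks, as do the listed CTNND1-201, CTNND1-207, CTNND1-213 and CTNND1-236. TNIK-210 (ENST00000470834.5) lacks both an exon of 87 bases at chr3:171139470-171139556 and an exon of 24 bases at chr3:171107183-171107206, on the minus strand. SLMAP-204 (ENST00000416658.5) lacks an exon of 60 bases at chr3:57890041-57890100 on the plus strand. SRP68-202 (ENST00000539137.5) lacks an exon of 114 bases at chr17:76067217-76067330 on the minus strand. PPP6R3-225 (ENST00000534190.5) lacks an exon of 87 bases at chr11:68583043-68583129 on the plus strand.
CTNND1-217 with the 18-base exon: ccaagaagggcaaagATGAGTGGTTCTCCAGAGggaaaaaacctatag
CTNND1-222 without the 18-base exon: ccaagaagggcaaagGGAAAAAACCTATAG
TNIK with the 24-base exon: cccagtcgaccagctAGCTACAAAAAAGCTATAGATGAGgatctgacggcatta
TNIK-210 without the 24-base exon: cccagtcgaccagctGATCTGACGGCATTA
TNIK with the 87-base exon: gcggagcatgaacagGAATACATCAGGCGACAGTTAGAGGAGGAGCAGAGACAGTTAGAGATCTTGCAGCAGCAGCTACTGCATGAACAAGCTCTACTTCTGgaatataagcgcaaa
TNIK-210 without the 87-base exon: gcggagcatgaacagGAATATAAGCGCAAA
SLMAP with the 60-base exon: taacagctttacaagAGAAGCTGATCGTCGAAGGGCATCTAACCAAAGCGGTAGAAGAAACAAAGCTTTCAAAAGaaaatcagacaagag
SLMAP-204 without the 60-base exon: taacagctttacaagAAAATCAGACAAGAG
SRP68 with the 114-base exon: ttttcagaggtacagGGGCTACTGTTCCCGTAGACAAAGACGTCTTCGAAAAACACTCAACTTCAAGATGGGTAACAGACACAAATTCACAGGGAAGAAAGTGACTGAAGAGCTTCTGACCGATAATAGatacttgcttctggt
SRP68-202 without the 114-base exon: ttttcagaggtacagATACTTGCTTCTGGT
PPP6R3 with the 87-base exon: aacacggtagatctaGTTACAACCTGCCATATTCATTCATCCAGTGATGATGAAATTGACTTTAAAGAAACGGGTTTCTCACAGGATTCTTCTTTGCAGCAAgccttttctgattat
PPP6R3-225 without the 87-base exon: aacacggtagatctaGCCTTTTCTGATTAT

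The leading transcripts also differ from the main ones at their ends. CTNND1-222 lacks an exon of 119 bases and the following exon of 289 bases, which holds the first start codon, so that its annotated coding sequence begins 101 codons downstream of that of CTNND1-205, the main transcript of 968 codons. With the 18-base exon and another coding exon of 87 bases of CTNND1-205 missing, it encodes 832 codons. UBE3A-203 (ENST00000566215.5) has the same coding length as UBE3A-217, 852 codons, with an additional 113-base exon ahead of it. MID1IP1-201 (ENST00000336949.6) has 2 exons where the other listed transcripts of the gene have 3, and all encode 183 codons. MYADM-210 (ENST00000448420.5) is annotated with an incomplete end of its coding sequence, PPP6R3-225 and SLMAP-204 with an incomplete start, and no coding sequence is defined for ITPRID2-209 (ENST00000467172.2) or SDC2-205 (ENST00000520233.1). None of the 10 is the main transcript of its gene.

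CTNND1 encodes p120-catenin, which binds the juxtamembrane part of cadherins and keeps them at the cell surface. Its forms from the first start codon are typical of mesenchymal cells and those from a later start codon of epithelial cells. CTNND1-222 was at 0.00215 estimated counts in wild-type CMs, at 3547 in *UBE2B-/-*1 and at 1701 in *UBE2B-/-*2. This is at least 1180-fold and 567-fold above a floor of 3 counts per library, and among the 996 transcripts called higher in both lines it had the largest mean change. The fitted log2 changes, 12.79 and 11.73 (SE 0.77), depend on the 0.5 added before the log, as do all fitted changes of transcripts at 0 below.

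Wild-type CMs were at 0 for the leading transcripts of the other 9 genes. Of those with housekeeping roles, SRP68-202, from the gene of a protein subunit of the signal recognition particle, which brings nascent secretory proteins to the endoplasmic reticulum, was at 399 estimated counts in *UBE2B-/-*1 and 297 in *UBE2B-/-*2, at least 133-fold and 98.9-fold above the floor. PPP6R3-225, from a regulatory subunit of protein phosphatase 6, was at 263 and 255 estimated counts. Both lines stood well above wild type for each, at closely similar levels for PPP6R3-225. UBE3A-203, from the HECT ubiquitin ligase that is imprinted in neurons, was at 175 and 164 estimated counts. MID1IP1-201, from a partner of the ubiquitin ligase MID1 that also activates acetyl-CoA carboxylase, was at 144 and 124.

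Genes of membranes, kinases and the cytoskeleton had the same pattern. MYADM-210, from a multi-span protein of membrane rafts, was at 214 estimated counts in *UBE2B-/-*1 and 327 in *UBE2B-/-*2. ITPRID2-209, from an actin-associated protein with an inositol trisphosphate receptor-interacting domain, was at 263 and 168. SDC2-205, from the heparan sulfate proteoglycan syndecan-2, was at 135 and 175. Here *UBE2B-/-*2 was the higher line for MYADM-210 and SDC2-205 and the lower for ITPRID2-209. TNIK-210, from a germinal center kinase that binds TRAF2 and NCK and acts in Wnt signaling, was at 204 and 361 estimated counts. SLMAP-204, from a tail-anchored membrane protein of the sarcolemma that also belongs to the STRIPAK phosphatase complex, was at 118 and 201. Per 1000 annotated bases, CTNND1-222 was the most abundant in *UBE2B-/-*1 at 619 and MID1IP1-201 the least at 30.0, while in *UBE2B-/-*2 MYADM-210 led at 420 and MID1IP1-201 was again lowest at 25.7.

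**Figure D1:**
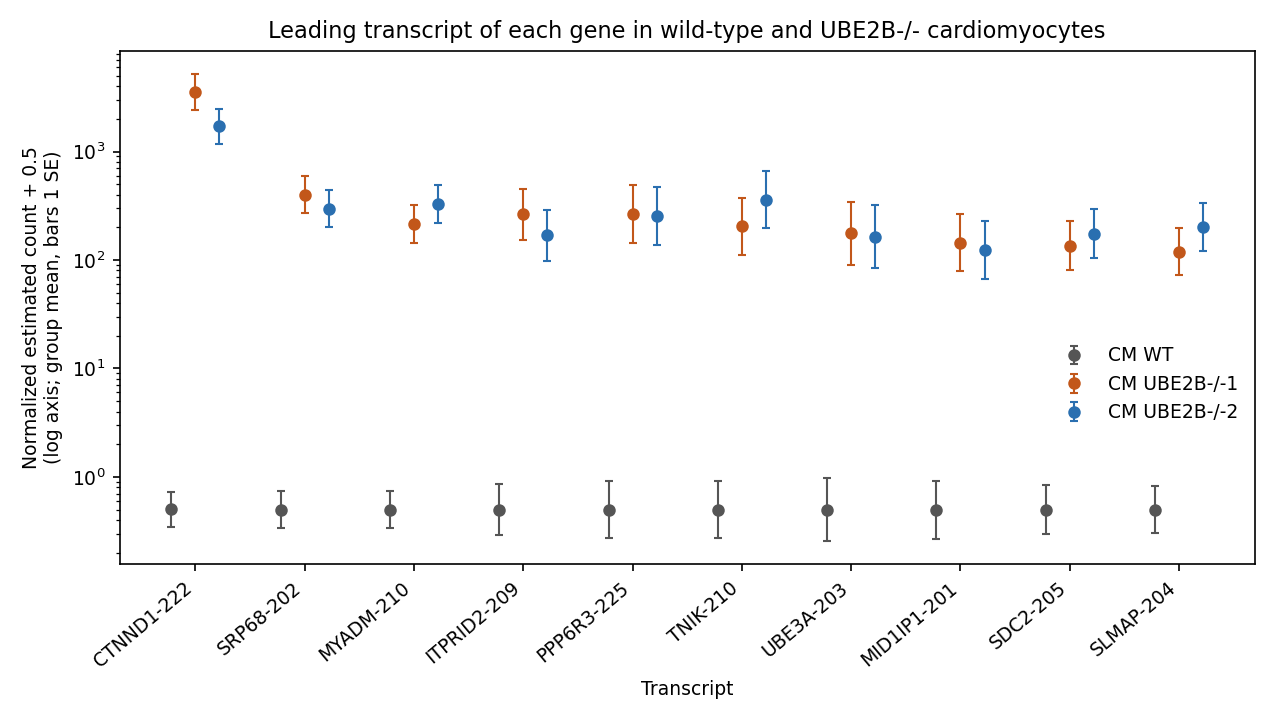
Normalized estimated count plus 0.5 (log axis) of the leading transcript of each gene in wild-type, *UBE2B-/-*1 and *UBE2B-/-*2 CMs; points are means of 3 libraries and bars are 1 standard error of the mean from the shared fit. The wild-type points lie at the 0.5 that was added, and the *UBE2B-/-* points lie between 118 and 3547 estimated counts.

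Together, 11 transcripts of these genes were called higher in both lines (1.52% of the 65457 transcripts tested were) and 5 lower in both (0.909% were). A call was a q-value of at most 0.05 with a change of at least 1.79-fold. In *UBE2B-/-*1 alone 11 were higher and 5 lower, against 2.18% and 1.72% of all transcripts tested, and in *UBE2B-/-*2 alone 11 were higher and 6 lower, against 2.46% and 1.53%. With a t distribution on the residual degrees of freedom none of these calls was left, here or among all transcripts tested in either line. Nothing is read from these counts, since the contrast chose the genes. Over the 10 leading transcripts the median fitted log2 change was 8.71 in *UBE2B-/-*1 and 8.83 in *UBE2B-/-*2, or 6.12 and 6.24 with wild type set to the floor, and over all listed transcripts the medians were 0.73 and 0.87. By mean change they ranked from 1 (CTNND1-222) to 25 (MID1IP1-201) among the 996.

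For none of these transcripts did the difference between the *UBE2B-/-* lines exceed the error of the fit. That cannot show that the lines agree, because the transcripts were chosen as higher in both. *UBE2B-/-*1 was higher for 6 leading transcripts and *UBE2B-/-*2 for 4. CTNND1-222 differed most, by log2 -1.06 in *UBE2B-/-*2 relative to *UBE2B-/-*1, with a 95% interval from -2.57 to 0.45 (Wald test from the Sleuth fit). PPP6R3-225 differed least, by log2 -0.04 with an interval from -2.50 to 2.41. These intervals leave room for severalfold differences between the lines. Of the 1992 transcripts listed for both lines, 0 (0%) differed between them at a q-value of at most 0.05. Being listed for both selects for agreement.

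The error has a part that comes from counting and assigning reads together, which the tables give as a technical variance. For 8 of the 10 leading transcripts this technical variance exceeded the residual variance between libraries. Its square root was log2 0.22 for CTNND1-222, 0.68 for SRP68-202, 1.05 for ITPRID2-209, 1.30 for TNIK-210 and 1.39 for UBE3A-203. CTNND1-222 thus had the smallest technical variance of these 5 and UBE3A-203 the largest. As counting and assignment are not separated, this does not rank how certain the assignment was. In GENCODE 44, 4 of the 10 leading transcripts, CTNND1-222, MYADM-210, TNIK-210 and SLMAP-204, hold no stretch of 31 bases that no other transcript holds, 31 being the default word length of Kallisto. SRP68-202, ITPRID2-209 and SDC2-205 hold 28 such stretches each, UBE3A-203 holds 29 and PPP6R3-225 holds 43. MID1IP1-201 holds 1081, counted in another version of the transcript than the one quantified. Levels of the first 4 therefore rest on combinations of shared reads, and all 10 should be taken as uncertain where reads could be split otherwise.

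In UBE3A and SLMAP, the other transcripts listed for both lines were lower in *UBE2B-/-* CMs as the leading transcript was higher. UBE3A-217 was at 851 estimated counts in wild-type CMs, 157 in *UBE2B-/-*1 and 212 in *UBE2B-/-*2. The sum over both listed UBE3A transcripts was 851, 332 and 376, and UBE3A-203 made up 52.7% and 43.6% of it, or 64.0% and 55.3% of the sum of levels per 1000 bases. SLMAP-205 was at 1554, 289 and 199 estimated counts in the same order of groups. SLMAP-206, SLMAP-208 and SLMAP-219 were at 943, 672 and 561 in wild type, between 159 and 352 in *UBE2B-/-*1 and between 171 and 334 in *UBE2B-/-*2. SLMAP-204 made up 10.2% and 18.3% of the SLMAP sum, which was 3730, 1158 and 1099, and 19.7% and 31% of the sum of levels per 1000 bases. In estimated counts the leading transcript was thus smaller than the deficit of the other listed SLMAP transcripts, and unlisted transcripts are not in the sum. At a q-value limit of 0.01 the calls of UBE3A-217 in *UBE2B-/-*2 and of SLMAP-205 and SLMAP-208 in *UBE2B-/-*1 were lost.

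In MYADM the other transcript was higher too, and in TNIK it stayed under the limit on fold. MYADM-207, which starts from another first exon and encodes the full 322 codons, was higher as well, at 114 estimated counts in wild type and 323 and 325 in *UBE2B-/-*1 and *UBE2B-/-*2, calls that are lost in both lines at a q-value limit of 0.01. TNIK-204, the main transcript with both short exons, was at 1747, 1073 and 980, listed at log2 -0.70 and -0.83 (SE 0.20) but under the limit on fold. With a limit of 1.5-fold, or none, TNIK-204 is called lower in both lines, like the other transcripts of UBE3A and SLMAP. With TNIK-210 added, the TNIK sum was 1747 in wild type and 1277 and 1341 in the lines, whereas the sum of levels per 1000 bases was 177, 160 and 190, so that *UBE2B-/-*2 turns from lower to higher. For ITPRID2, ITPRID2-206, annotated as a target of nonsense-mediated decay, was called lower in *UBE2B-/-*2 (log2 -1.08, SE 0.31), a call also lost at that limit, and not listed for *UBE2B-/-*1. For CTNND1, SRP68, PPP6R3, MID1IP1 and SDC2 no other transcript was listed in either line.

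**Figure D2:**
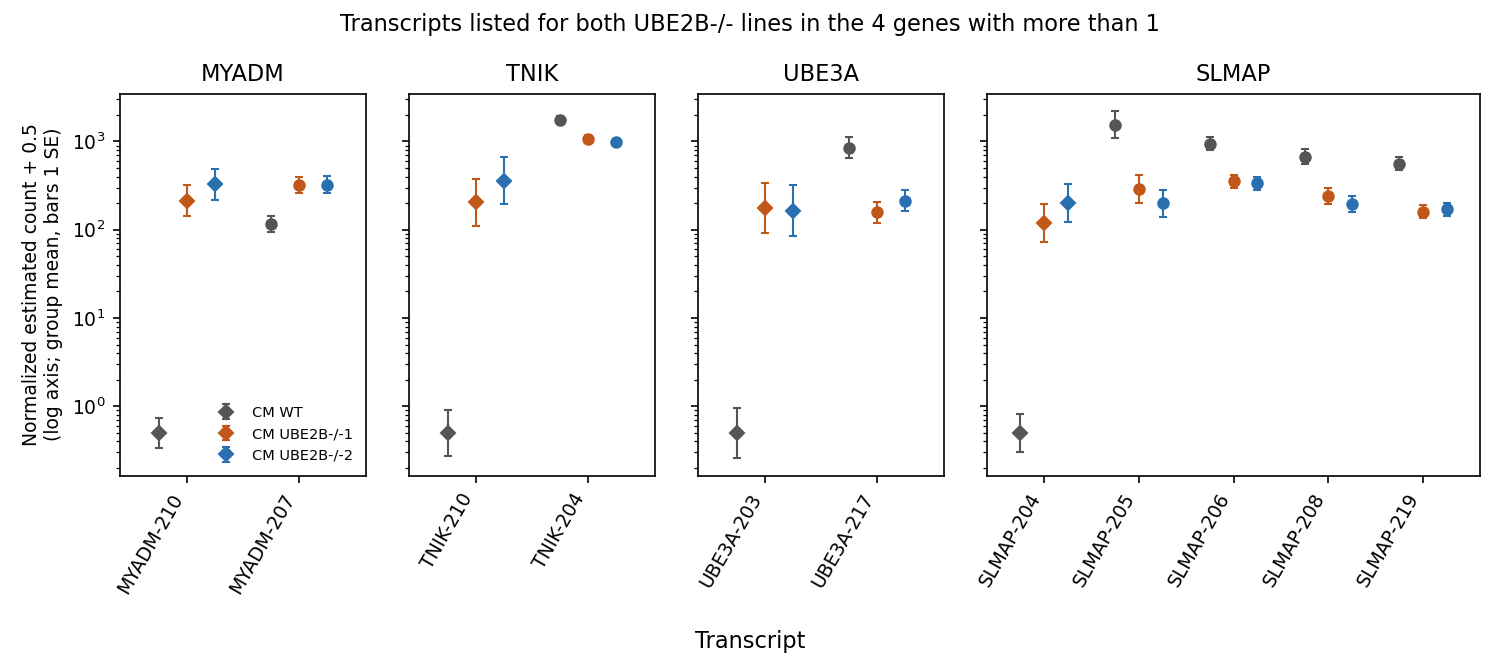
Normalized estimated count plus 0.5 (log axis) of every transcript listed for both lines in MYADM, TNIK, UBE3A and SLMAP; diamonds are leading transcripts, circles the others, points are means of 3 libraries and bars 1 standard error. In UBE3A and SLMAP all *UBE2B-/-* points of the other transcripts lie below wild type, and in MYADM they lie above it.

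The stage transitions give the wild-type course of these isoforms. The first 3 transitions share no library with the contrast that chose the genes, whereas CP to CM shares its wild-type CM libraries. Of the 10 leading transcripts, 3 were listed at some transition and 7 at none. TNIK-210 fell from 512 estimated counts in iPSCs to 240 at the M stage (log2 -1.09, SE 0.22, q-value 5.54e-05). The main transcript TNIK-204 fell alike, from 1013 to 501 (log2 -1.02, SE 0.14), so the fall was not particular to TNIK-210. CTNND1-222 rose from 1346 at the CMes stage to 2538 at the CP stage (log2 0.92, SE 0.32, q-value 0.0401), a call that is lost at a q-value limit of 0.01. When the same statistics were read against a t distribution, the calls of TNIK-210, TNIK-204 and CTNND1-222 were lost. Both leading isoforms had levels well above 0 in wild-type cells before the CM stage.

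From CP to CM the same 3 went to 0 or next to 0, which is given as a description with no test, because their level in these wild-type CMs chose them. CTNND1-222 was at 2248 estimated counts in CPs and 0.00187 in CMs, at least 749-fold lower. TNIK-210 was at 201.5 and 0, at least 67.2-fold lower, and SLMAP-204 at 133 and 0, at least 44.3-fold lower. In the lines, the same transcripts stood near the level of wild-type CPs when the CM libraries of both fits were brought to 1 scale (a factor of 0.867). On that scale CTNND1-222 was at 2248 in CPs, 3074 in *UBE2B-/-*1 and 1474 in *UBE2B-/-*2. TNIK-210 was at 201.5, 177 and 312, and SLMAP-204 at 133, 102 and 174. The fits were normalized separately, so these levels are set side by side without a test, and the zero level of wild-type CMs is the same measurement in both. With wild-type CMs at 0, a leading transcript was listed from CP to CM only if it stood well above 0 in CPs. The nearness to CPs thus covers these 3 only, and for the other leading transcripts no level in CPs is known.

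**Figure D3:**
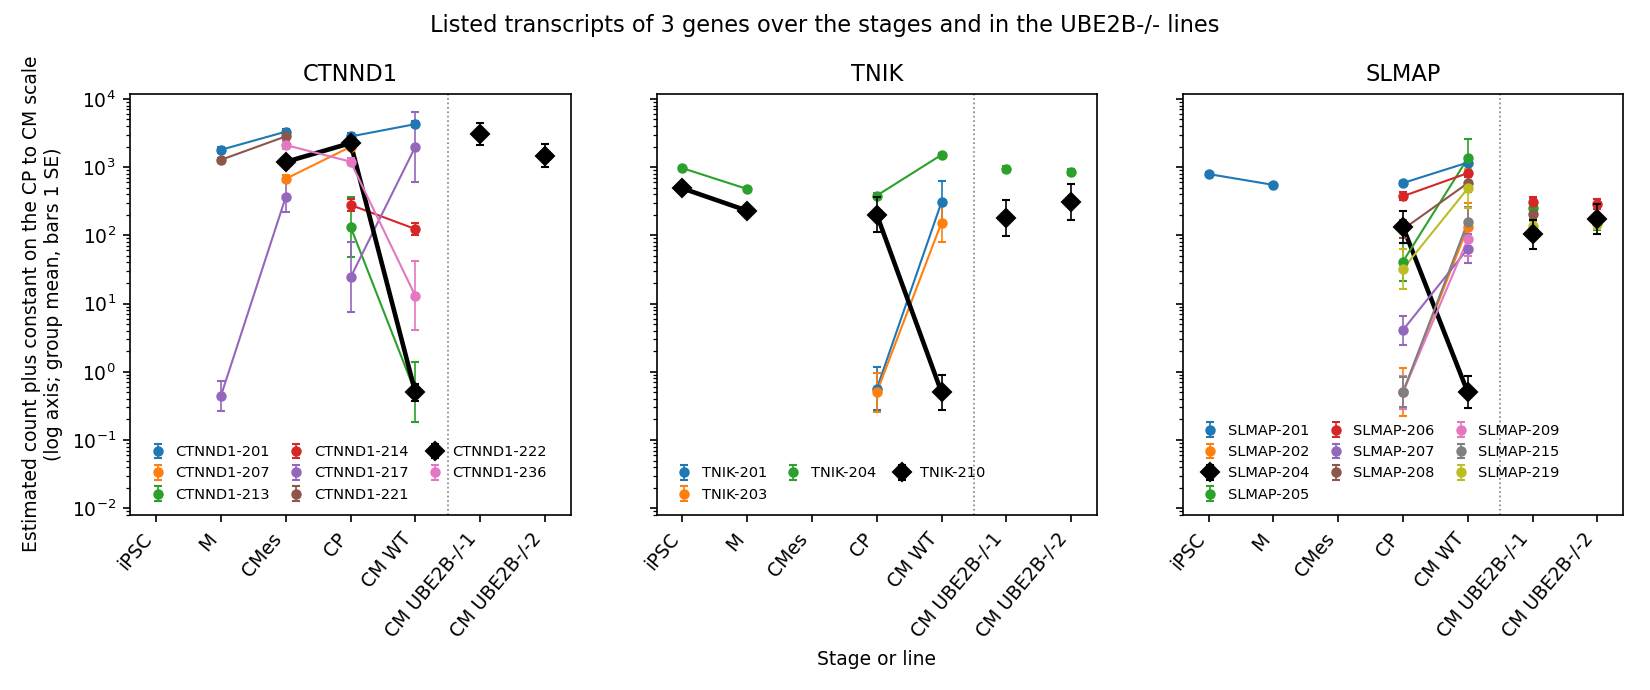
Estimated count plus the added constant, brought to the scale of the CP to CM fit (log axis), of every listed transcript of CTNND1, TNIK and SLMAP by stage and, right of the dotted line, in the *UBE2B-/-* lines; black diamonds are the leading transcripts, lines join stages compared in 1 table, bars are 1 standard error, and stages without a point were not listed. The leading transcripts drop to about the added constant of 0.5 in wild-type CMs and stand at 2248, 201.5 and 133 estimated counts in CPs.

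At the same transition other transcripts of the genes rose. TNIK-204 rose from 382 to 1514 estimated counts (log2 1.99, SE 0.15). TNIK-201, with the 87-base but not the 24-base exon, rose from 0.0617 to 306, at least 102-fold, and TNIK-203, with the 24-base but not the 87-base exon, from 0 to 153, at least 51.0-fold. All 3, which are all the other listed TNIK transcripts, contain at least 1 of the exons that TNIK-210 lacks. On the common scale TNIK-204 was at 930 and 850 in *UBE2B-/-*1 and *UBE2B-/-*2, between CPs and wild-type CMs. In SLMAP, 9 transcripts rose. They are all the listed transcripts other than SLMAP-204, and since each holds the 60-base exon, within a longer exon for SLMAP-209 and SLMAP-215, any set of them would, so that nothing is read from its presence. SLMAP-205 rose from 40.8 to 1347 estimated counts (log2 5.03, SE 1.31) and SLMAP-201 from 584 to 1167 (log2 1.00, SE 0.16), while SLMAP-202, SLMAP-209 and SLMAP-215 were at 0 in CPs and at 132, 86.9 and 156 in CMs. At a q-value limit of 0.01 the call of SLMAP-219 was lost, and with a t distribution all 9 were. The 4 SLMAP transcripts that were lower in both lines, SLMAP-205, SLMAP-206, SLMAP-208 and SLMAP-219, are among these 9, and the comparisons share wild-type CMs. On the common scale SLMAP-205 was at 40.8 in CPs, 1347 in wild-type CMs, 250.1 in *UBE2B-/-*1 and 172 in *UBE2B-/-*2, and SLMAP-219 at 31.7, 486, 138 and 148, so that both lay above CPs and below wild-type CMs in the lines. SLMAP-208 did as well, at 122, 582, 208 and 168, whereas SLMAP-206 was at 374, 817, 305 and 290, below CPs in both lines.

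CTNND1 transcripts went in both directions. CTNND1-217, which has 838 codons and all exons of CTNND1-222 plus the 18-base exon shown above, rose from 23.6 to 1980 estimated counts (log2 6.36, SE 2.41, q-value 0.046). Neither CTNND1-217 nor CTNND1-222 holds a stretch of 31 bases of its own. CTNND1-236 fell from 1202 to 12.5 (log2 -6.53, SE 2.37), CTNND1-213 from 133 to 0, at least 44.5-fold, and CTNND1-214 from 279 to 123 (log2 -1.17, SE 0.42). CTNND1-201, which keeps the first start codon, was the most abundant listed form in wild-type CMs at 4265 with a log2 difference of 0.60 from CPs (SE 0.20), under the limit on fold. The sum over the 6 listed CTNND1 transcripts was 6699 in CPs and 6381 in CMs, a log2 change of -0.07 beside changes of single transcripts from -12.13 to 6.36. At a q-value limit of 0.01 the calls of CTNND1-214, CTNND1-217 and CTNND1-236 were lost. Earlier, CTNND1-217 had gone from 0 to 409 between M and CMes, CTNND1-201 had risen by log2 0.88 (SE 0.19) and CTNND1-221 by 1.14 (SE 0.15), and CTNND1-207, which shares the coding length of CTNND1-222, rose by 1.56 (SE 0.23) from CMes to CP.

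In MYADM, ITPRID2, UBE3A, MID1IP1 and SDC2 the calls at the stage transitions were of transcripts other than the leading one. MYADM-204, the main transcript, rose from M to CMes (log2 1.66, SE 0.20) and from CP to CM (1.24, SE 0.15), where it reached 6164 estimated counts. MYADM-207 fell from 261 to 105 between iPSC and M (log2 -1.31, SE 0.31), rose from M to CMes (1.09, SE 0.33) and fell from 290 to 99.1 from CP to CM (-1.54, SE 0.39). On the common scale it was at 279.7 and 281.5 in *UBE2B-/-*1 and *UBE2B-/-*2, beside 289.8 in CPs. UBE3A-217 was not at the level of CPs on that scale, with 136 and 184 in the lines beside 329 in CPs. ITPRID2 rose from CP to CM in 5 listed transcripts, from 689 to 4029 estimated counts in sum. Its main transcript ITPRID2-205 rose from 246 to 1958 (log2 2.99, SE 0.99). The sum is not of coding transcripts alone. ITPRID2-208, at 352 and 1733, is annotated as a target of nonsense-mediated decay, and ITPRID2-212 and ITPRID2-213 as retaining an intron. ITPRID2-207 has an incomplete start of its coding sequence. UBE3A-217 rose from 329 to 738 (log2 1.16, SE 0.40), and UBE3A-226, the main transcript, was at 995 and 1567 (log2 0.66, SE 0.20), under the limit on fold. At a q-value limit of 0.01 the calls of UBE3A-217, ITPRID2-205, ITPRID2-207 and ITPRID2-213 from CP to CM, the last 3 being among the 5 rises of ITPRID2, and of MYADM-207 from M to CMes were lost.

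MID1IP1 fell at the later transitions. MID1IP1-204 was listed with a log2 change of 0.76 (SE 0.13) from iPSC to M and -0.60 (SE 0.12) from M to CMes, both under the limit on fold, and fell by 0.93 on the log2 scale from CMes to CP (SE 0.12) and by 1.30 from CP to CM (SE 0.21), to 313 estimated counts, and MID1IP1-202 fell from 1110 to 233 (log2 -2.25, SE 0.27). SDC2 changed early. SDC2-201 fell from 1537 to 318 estimated counts between iPSC and M (log2 -2.27, SE 0.14) and rose to 757 from 340 at the M to CMes transition (1.15, SE 0.16), and SDC2-207 followed it with log2 -2.10 (SE 0.22) and 0.95 (SE 0.26). SRP68 and PPP6R3 had no transcript listed at any transition, so that the leading transcript is their sole one in these tables.

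**Figure D4:**
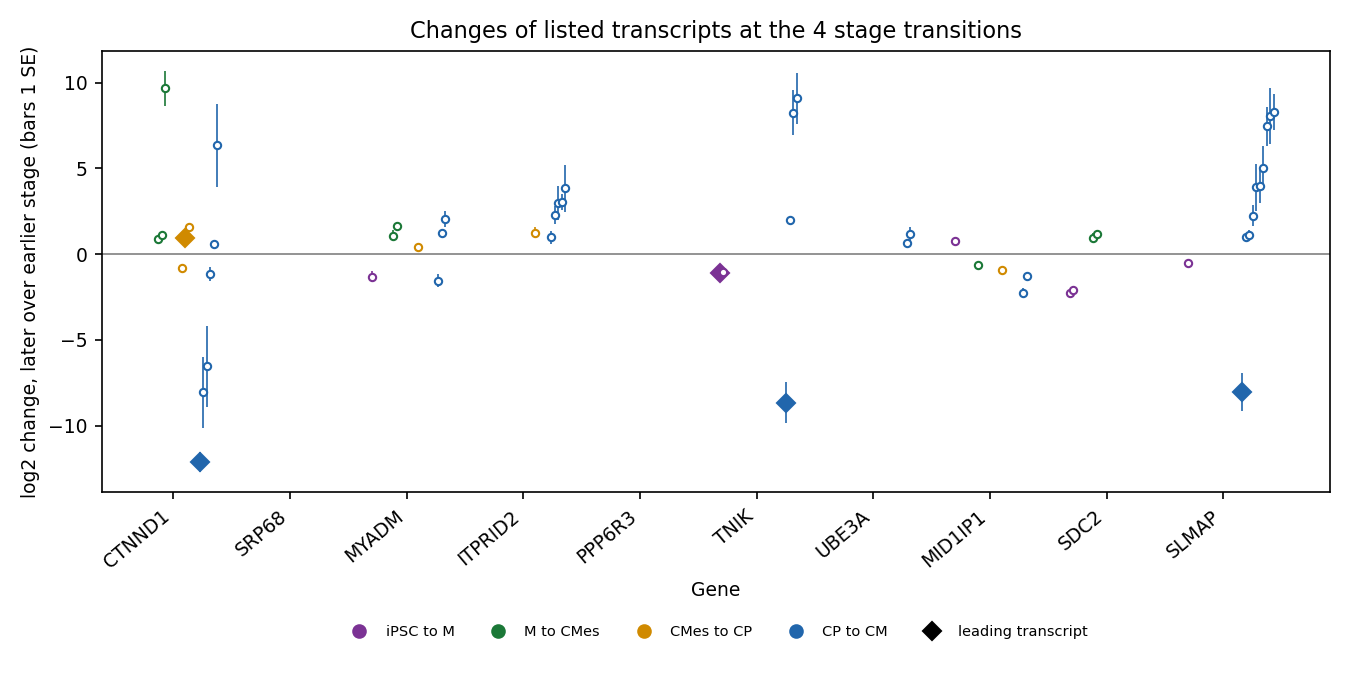
Log2 change of every listed transcript of the 10 genes at the 4 stage transitions, later over earlier stage, with bars of 1 standard error; filled diamonds are leading transcripts. The leading transcripts of CTNND1, TNIK and SLMAP sit at -12.13, -8.66 and -8.06 from CP to CM, below 0, while most other transcripts of TNIK, SLMAP and ITPRID2 sit above it.

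In counts, from iPSC to M 0 transcripts of the genes rose and 5 fell, against 1.24% and 1.62% of the 68446 transcripts tested. From M to CMes 7 rose and 0 fell, against 3.81% and 2.65%. From CMes to CP 3 rose and 1 fell, against 3.80% and 2.63%. From CP to CM 21 rose and 9 fell, 3 of the latter being the leading transcripts, against 8.25% and 6.99%. How many transcripts of the genes were tested is not in the tables. GENCODE 44 annotates 217, of which the rises and falls make up 9.68% and 4.15% at the last transition, 1.38% and 0.461% at the one before, 3.23% and 0% for M to CMes, and 0% and 2.30% for iPSC to M. Annotated and tested transcripts are unlike totals, so that nothing is read from these shares against the background. The median log2 change of the 32 listed from CP to CM was 1.61, beside 0.63 over all 12982 listed.

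The proteins that work with these genes were read from fixed lists. As the background for each count of genes below, 7.26% of the 11851 genes listed in any table had a transcript higher in both lines and 3.80% had one lower in both. Of 15 catenins and cadherins, 14 of them listed in some table, 2 had a transcript lower in both lines and 0 higher. CTNNB1, beta-catenin, went from 3221 estimated counts to 1318 and 1383, and CTNNA3, the alpha-catenin of the heart, from 4660 to 1302 and 1347. PKP2 went from 15155 to 7808 and 9019, called lower in *UBE2B-/-*1 and under the limit on fold in *UBE2B-/-*2. Of 16 STRIPAK genes, partners of SLMAP, 12 of them listed in some table, 3 were lower (against 3.80% of genes) and 0 higher, among them STRIP2, whose larger transcript went from 4292 to 1228 and 849. STRN went from 3698 to 1741 and 2079, also called lower in *UBE2B-/-*1 only. Of the 8 kinases and partners around TNIK, 2 were higher and 0 lower. MAP4K4, the closest relative of TNIK with MINK1, had a transcript at 1.66 estimated counts in wild type and 534 and 425 in the lines.

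Of 10 HECT ligases, 9 of them listed in some table, 2 had a transcript higher and 1 of these also a transcript lower, against 7.26% and 3.80% of all listed genes. NEDD4 had both, one going from 2.12 to 393 and 223 estimated counts and another from 716 to 347 and 395, a pair of opposite changes like that of UBE3A. Of 7 signal recognition particle genes, 1, SRP9, had a transcript higher, at 1.77 estimated counts in wild type and 135 and 150 in the lines. SRP14 was listed for both lines in the other direction, from 2654 to 1634 and 1574 (log2 -0.70 and -0.75), under the limit on fold. Partners of protein phosphatase 6, syndecans and glypicans, lipogenic partners of MID1IP1, raft proteins and relatives of ITPRID2 had 0 calls shared by both lines, the latter lists holding 6, 7, 6, 7 and 5 genes. Among them, FASN (log2 0.80 and 0.84) and CMTM3 (log2 0.74 and 0.77) were listed for both lines but under the limit on fold. With a limit of 1.5-fold, or none, FASN and CMTM3 would be called higher and SRP14 lower.

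Of 18 splicing regulators, 15 of them listed in some table, 2 had a transcript higher in both lines and 3 a transcript lower, against 7.26% and 3.80% of all listed genes. With so few genes a list, nothing particular to a list is read from these counts. PTBP1, a repressor of muscle and neural exons, was higher in 4 transcripts, the most abundant at 2199 estimated counts in wild type and 5942 and 5482 in the lines. MBNL3 had a transcript at 0 in wild type and 22.2 and 13.2 in the lines. RBM20, the regulator of titin splicing, went from 8814 to 2548 and 2433, and QKI and RBM24 were lower in 3 and 2 transcripts. From CP to CM the same PTBP1 transcript had fallen from 5990 to 1906 and RBM20 had risen from 707 to 7638. Their part in the isoforms above was not tested.

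Markers of cell types were also read from fixed lists, in the contrast that chose the genes. Of 10 cardiomyocyte markers, 6 were lower in both lines (against 3.80% of all listed genes) and 0 higher, and the summed level of those listed went from 395739 estimated counts in wild type to 70979 and 76471, with TTN the most abundant. Of 9 fibroblast and mesenchymal markers, 3 were higher (against 7.26%) and 0 lower, summing to 9373 in wild type and to 95333 and 248900 in the lines. COL3A1 was the most abundant, and DCN was under 7 estimated counts in wild type for each of its transcripts listed for both lines. COL1A1, COL1A2, LUM, PDGFRA, POSTN and THY1 were not listed for both lines. CNN1, of 5 smooth muscle markers, was lower. KRT18 was higher and KRT8 lower of 9 epithelial and endoderm markers. DCX, of 6 neural markers, was at 0 in wild type and at 48.1 and 86.5 in the lines, and none of 6 endothelial and 6 pluripotency markers was listed for both lines. In bulk libraries fewer cells of a type and less RNA per cell cannot be told apart, and the part of cell composition in these isoforms was not tested.

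The targeted gene itself was listed in 1 line. A UBE2B transcript was lower in *UBE2B-/-*1 (log2 -1.91, SE 0.53, q-value 0.0113) and not listed in *UBE2B-/-*2, and a UBE2A transcript was lower in *UBE2B-/-*1 by -0.68 (SE 0.20), under the limit on fold. An edit that shifts the reading frame can leave transcript levels as they were, so this does not check the labels.

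The genes most like the 10 were taken as the 5 named genes outside the list with the largest mean change among transcripts higher in both lines and at no more than 0.1 estimated counts in wild-type CMs. Over the 3 groups of CMs these were ACTB, with a transcript at 0, 920 and 421 estimated counts, SPTAN1 at 0.0546, 508 and 646, MTHFD1L at 0.025, 148 and 488, MEIS2 at 0.0975, 180 and 290, and LIMA1 at 0.00883, 122 and 271. A transcript with no gene name in the tables, ENST00000435882.6, at 0.0428, 382 and 778, had a mean change above those of MTHFD1L, MEIS2 and LIMA1. ACTB, SPTAN1 and LIMA1 encode beta-actin and proteins that bind actin, MEIS2 is a homeodomain factor, and MTHFD1L is a mitochondrial enzyme of one-carbon metabolism. In all, 123 of the 996 transcripts higher in both lines (12.3%) were at 0 in wild type by this limit. All 10 leading transcripts were among them.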

How the data were processed

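RNA-seq libraries were grouped by their sample titles. The authors trimmed reads, quantified transcripts with Kallisto against hg38 and fitted Sleuth models, and deposited 6 tables of Wald tests. Per the file headers, each row holds a p-value and a q-value, which the authors adjusted for all tests of a table by the Benjamini-Hochberg method, the effect b, its standard error and the mean on the natural log scale of (estimated count + 0.5), and variances, which are deposited scores on the squared natural log scale. The tables are the authors' own comparisons and hold q-values up to 0.05 only, with 0 columns of single libraries, so depth is unknown and precision is the standard error of the fit.

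Group means were solved from b and the mean, p-values and q-values recomputed from b and its standard error, and the number tested recovered from the ratio of q-value to p-value at each rank. The procedure was tested on simulated data. Calls needed q-values up to 0.05 and a size of b from 0.585 upward (1.79-fold). Both lines come from 1 fit of 9 libraries, each transition from 6. Transcripts were joined to GENCODE 44 without their version, which matched all 44, of which 37 had the same version. Replicates came from separately started plates of 1 cell line. The analysis used Python 3.11.15, numpy 2.4.6, pandas 2.3.3 and scipy 1.17.1.

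The 10 genes, the lists around them, the tests and the alternatives were chosen with earlier results of these data known. Named were all listed transcripts of the 10 genes, and as the leading transcript the one called higher in both lines with the largest mean b. Alternatives were another fold limit or none, a stricter q-value, a t distribution, the source and constant of recovered levels, and length scaling.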

Additional observations from a re-analysis of the deposited data

How the results depend on the processing

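With a t distribution on the residual degrees of freedom (4 for a transition, 6 for the lines), stricter than the normal distribution of the Sleuth test, the number of called transcripts of the 10 genes became 2 from CP to CM and 0 at each of the other 3 transitions, in *UBE2B-/-*1, in *UBE2B-/-*2 and in both lines. The calls left were those of CTNND1-222, which was chosen for its level in these wild-type CMs, and of TNIK-204. Over all transcripts this distribution left 417 rises and 144 falls from CP to CM, 1 call from CMes to CP and 0 elsewhere. Under a limit of 1.5-fold on b, no limit on fold or a q-value of at most 0.01, the number of called transcripts of the 10 genes, rises and falls summed, stayed within 1.5 times its value in each comparison. By direction it did not: at the stricter q-value those lower in both lines went from 5 to 2 and those lower in *UBE2B-/-*1 from 5 to 3, and with no limit on fold rises from iPSC to M went from 0 to 1, falls from M to CMes from 0 to 1 and falls from CMes to CP from 1 to 2, as they did at 1.5-fold. Over all transcripts the stricter q-value took those higher and lower from 1425 and 1123 to 733 and 666 in *UBE2B-/-*1, from 1609 and 1001 to 886 and 579 in *UBE2B-/-*2, and from 996 and 595 to 543 and 357 in both. With no limit on fold, calls from iPSC to M went from 849 rises and 1112 falls to 1539 and 1776, and falls from 1861 to 2924 for M to CMes and from 1877 to 3623 for CMes to CP. At the stricter q-value 20 single results lost their call, among them CTNND1-222 from CMes to CP. The highest wild-type level among the leading transcripts was 0.00215 estimated counts, or 0.502 as the geometric mean of count + 0.5, which is the constant itself. Levels per 1000 bases changed no direction of a summed level for MYADM, UBE3A or SLMAP, but raised the share of the leading transcript in the sum, to the values given beside UBE3A and SLMAP. The TNIK sum relative to wild type was log2 -0.45 and -0.38 in the lines, and -0.14 and 0.10 per 1000 bases. No paired analysis was possible because the tables hold no value per library, and for the same reason leaving out each replicate was not run.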

Other observations

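Of the 996 transcripts called higher in both lines, 123 were at no more than 0.1 estimated counts in wild-type CMs, and 145 at no more than 0.5. Of the 595 called lower in both lines, 1 was at no more than 0.1 in *UBE2B-/-*1, 1 in *UBE2B-/-*2 and 0 in both, each single count again resting on 1 group of 3 libraries. Those of the 123 transcripts with a gene name belong to 118 genes, and the median fitted log2 change of the 123 was 6.41, from 4.51 to 12.26.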
